A study of Mus musculus with 28 samples.

Results

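Myl4 encodes the essential myosin light chain of atrial muscle. Its signal ran from 106.9 to 14212.5 over the 28 mouse heart samples described here, each called a heart below. The arrays were ranked by the brighter of the 2 Myl4 probe sets. The 9 highest were called the high-Myl4 hearts and the 9 lowest the low-Myl4 hearts, which left 10 hearts between them. The ranking used a measured value, so every difference between high-Myl4 and low-Myl4 hearts is a description without a p-value. Myl4 itself is not counted among the genes that differed.

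Total RNA from frozen heart tissue was read on 1-colour Affymetrix arrays, 1 array for each sample. The 4 groups held 7 arrays each, and they were del337TR mice given WY14643, Control mice given WY14643, untreated del337TR mice and untreated Control mice. The del337TR strain carries a deletion named for a thyroid hormone receptor and models resistance to thyroid hormone, and WY14643 activates the nuclear receptor PPARalpha. The study asked how receptor resistance and PPARalpha activation act together in the heart. The sources used here give neither the receptor gene, the way the allele was made, age, dose and duration, nor whether atria were separated from ventricles. P-values below cover the spread between samples as labelled.

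Atrial and ventricular muscle use different forms of the same contractile and calcium-handling proteins. Atrial muscle is known for the light chains of Myl4 and Myl7, for sarcolipin, a small membrane protein that restrains the calcium pump of the sarcoplasmic reticulum, and for secretion of atrial natriuretic peptide. Ventricular muscle of the adult mouse uses the light chains of Myl2 and Myl3 and restrains the same pump mainly with phospholamban. Thyroid hormone is known to act on several of these genes. In RNA from whole tissue, fewer cells of a type and less RNA in each cell cannot be told apart.

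The Myl4 signal ran from 5494.9 to 14212.5 in the high-Myl4 hearts, with a median of 7964.5, and from 106.9 to 1025.1 in the low-Myl4 hearts, with a median of 435.8. The ranking had no wide gap at either border. Rank 9, replicate 2 of del337TR with WY14643, had 5494.9, and rank 10, replicate 3 of untreated del337TR, had 4642.7. Rank 19, replicate 7 of Control with WY14643, had 1467.9, and rank 20, replicate 5 of untreated Control, had 1025.1. The second Myl4 probe set was dim and flat, with 142.2 to 193.8 in high-Myl4 and 121 to 188.5 in low-Myl4 hearts.

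The other atrial markers ordered the hearts in nearly the same way. Myl7, the atrial regulatory light chain, ran from 2892.6 to 7967.7 (median 3930.7) in high-Myl4 hearts and from 4.8 to 299.5 (median 147.2) in low-Myl4 hearts. Ranking by Myl7 gave the same 9 highest and the same 9 lowest hearts. Sln, which encodes sarcolipin, ran from 2938.6 to 11151 (median 5009.5) in high-Myl4 hearts and from 4.3 to 435.8 (median 95.6) in low-Myl4 hearts. Ranking by Sln kept 8 of 9 hearts in each set. For Myl7 and Sln, no low-Myl4 heart reached the lowest high-Myl4 heart, and for Myl4 the ranking itself set this. In ranks 25 to 28 Sln lay between 4.3 and 11.7 and Myl7 between 4.8 and 43.4, near the bottom of the arrays' range.

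**Figure D1:**
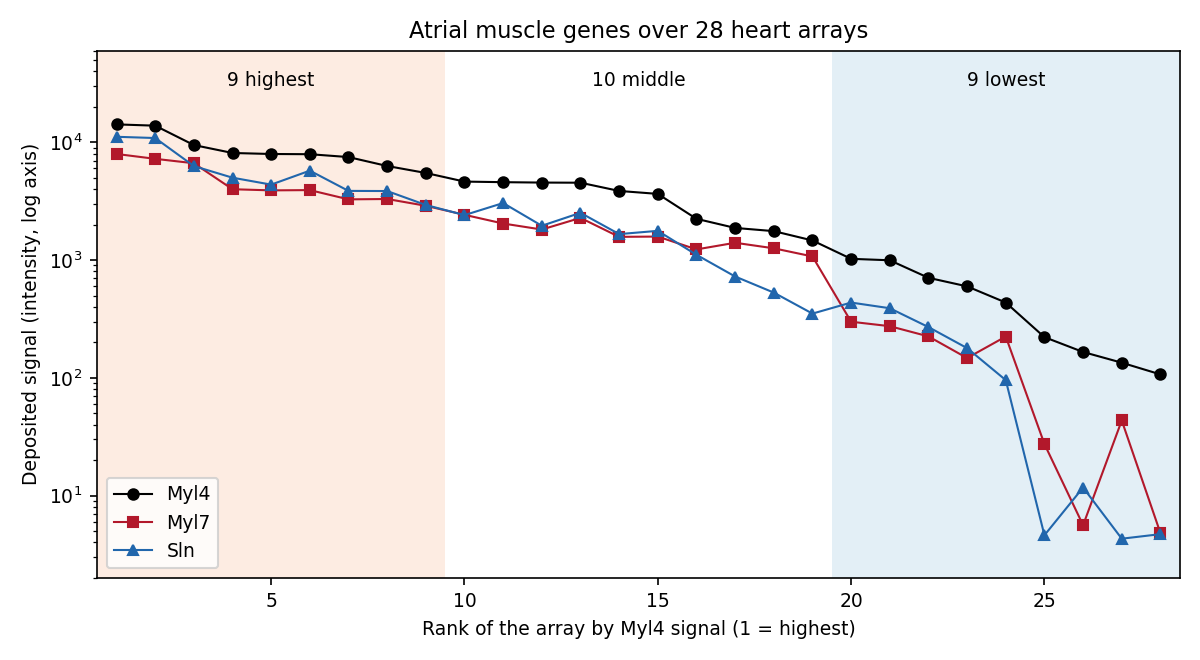
Deposited signal (log axis) of Myl4, Myl7 and Sln for each of the 28 hearts, in order of Myl4 rank, with the 9 highest and the 9 lowest shaded. All 3 genes fall across the ranking, and Myl7 is at least 1.93 times Sln at ranks 17, 18, 19 and 24, as well as at ranks 25 and 27, where both are dim.

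The 2 sets were alike in sex and differed in strain. Signals of Xist and Eif2s3y put 3 female and 6 male hearts in each set. The high-Myl4 hearts held 5 del337TR and 4 Control-strain hearts, and the low-Myl4 hearts held 3 and 6. Both sets held 4 hearts given WY14643 and 5 untreated ones. RNA quality, read as actin signal at the 3′ over the 5′ end, stood at 1.29 ± 0.12 in high-Myl4 and 1.23 ± 0.06 in low-Myl4 hearts (SD, n = 9 each). Array medians lay between 60 and 77.8, and the 2 sets differed by a median of 0.01 (log2) over all probe sets. With strain and treatment group as a block, the differences of the 18 probe sets called higher below moved by -0.21 to 0.16 (log2), and the lowest was 1.09. The part of RNA quality was not tested.

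The regulatory DNA of Myl7, Mybphl and Nppa is shown from RefSeq's table of mouse promoters (GRCm38.p6). These 3 were picked from the 19 genes whose signals were higher in every high-Myl4 heart than in any low-Myl4 heart. The promoters of Myl4, which chose the hearts, and of Sln, Dkk3 and the other separated genes are not shown. Each window holds 250 bases before the annotated start, 5′ to 3′ on the gene's strand. Capitals mark GATAA, a core of GATA factor sites, on either strand, and the CArG box, which binds serum response factor.

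Myl7 (chr11:5898783-5899032, minus strand): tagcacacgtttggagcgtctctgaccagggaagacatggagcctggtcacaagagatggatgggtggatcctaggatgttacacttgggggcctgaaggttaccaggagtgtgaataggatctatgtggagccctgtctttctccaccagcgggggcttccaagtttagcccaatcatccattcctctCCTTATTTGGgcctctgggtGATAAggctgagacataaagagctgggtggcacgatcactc

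Mybphl (chr3:108364661-108364910, plus strand): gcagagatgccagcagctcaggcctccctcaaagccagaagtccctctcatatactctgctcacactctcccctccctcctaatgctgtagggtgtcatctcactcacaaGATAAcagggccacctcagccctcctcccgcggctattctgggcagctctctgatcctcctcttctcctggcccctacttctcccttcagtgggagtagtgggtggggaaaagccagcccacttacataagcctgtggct

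Nppa (chr4:148000472-148000721, plus strand): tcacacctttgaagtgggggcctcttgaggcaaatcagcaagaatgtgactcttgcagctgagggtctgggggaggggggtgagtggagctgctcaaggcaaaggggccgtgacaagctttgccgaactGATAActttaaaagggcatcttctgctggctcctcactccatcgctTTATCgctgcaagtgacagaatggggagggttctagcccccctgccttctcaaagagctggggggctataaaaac

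The Myl7 window held 1 GATAA and 1 CArG box, the Mybphl window 1 GATAA, and the Nppa window 2 GATAA. Nppa also held 1 AGGTGT, a T-box core. AGGTCA, a half-site of nuclear hormone receptors, and the MEF2 motif were searched on both strands and not found in these 3 windows. Among 32851 promoter windows of this length, 22.6% held GATAA, 11.8% AGGTGT, 14% AGGTCA, 1.47% a CArG box and 2.92% a MEF2 motif. These matches describe letters only, and 3 picked windows give no share for the separated genes.

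The strain and treatment groups were spread over the ranking. In del337TR with WY14643, Myl4 ran from 165.7 to 14212.5 (median 4554.1), and 2 hearts were among the highest, 3 between and 2 among the lowest. In Control with WY14643 it ran from 134.4 to 8124.7 (median 1761.7), again with 2, 3 and 2. In untreated del337TR it ran from 707.2 to 13859.6 (median 4642.7), with 3, 3 and 1. In untreated Control it ran from 106.9 to 9488.6 (median 1025.1), with 2, 1 and 4. Each group thus had hearts in both sets. Untreated del337TR reached no lower than rank 22, while the other groups reached ranks 26, 27 and 28.

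The mean rank, where 1 is the highest Myl4, was 11 ± 7.02 in untreated del337TR and 17 ± 9.63 in untreated Control (SD, n = 7 each). This difference of -6 ranks had an exact two-sided permutation p of 0.213. Under WY14643 the mean rank was 13.3 ± 8.14 in del337TR and 16.7 ± 8.20 in Control, with an exact permutation p of 0.458. WY14643 against no treatment gave a difference of 2.29 ranks in del337TR (exact permutation p = 0.603) and -0.29 in Control (exact permutation p = 0.976). Adjusted over these 4 comparisons the p-values were 0.804 or above. The spread within groups was larger than every difference between them.

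**Figure D2:**
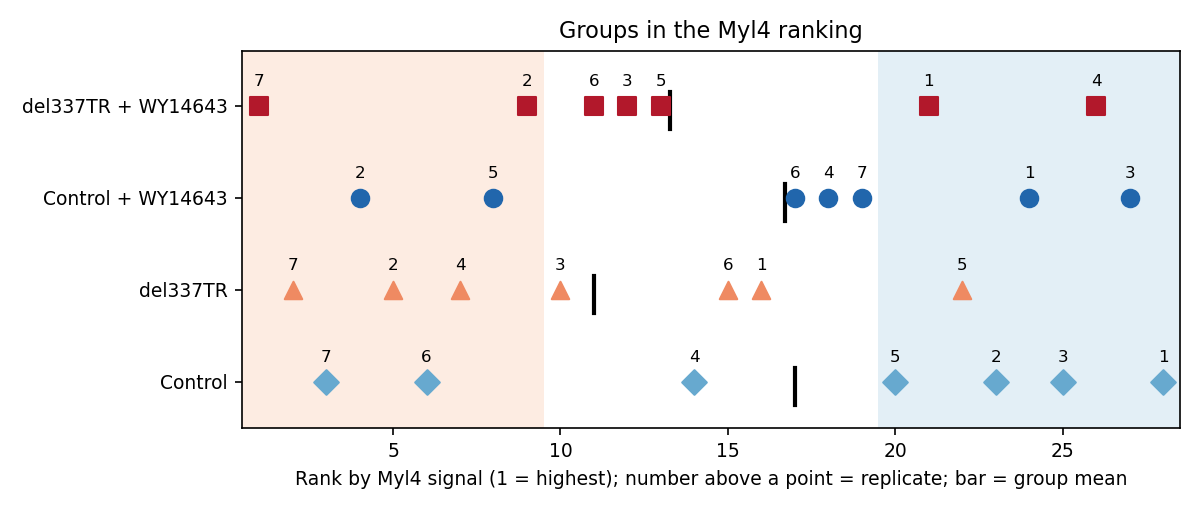
Myl4 rank of each heart (1 = highest) by group, with the replicate number above each point and a bar at the group mean, and the 9 highest and 9 lowest shaded. Every group has hearts in both shaded parts, and untreated del337TR reaches no lower than rank 22.

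The fit over all probe sets gave the same reading on the log2 scale. Between untreated del337TR and untreated Control hearts, limma put the difference at 1.77 ± 1.07 for Myl4 (SE), 2.67 ± 1.52 for Myl7 and 3.02 ± 1.73 for Sln, with a limma adjusted p of 0.999 for each. Under WY14643 the strain differences were 0.91 ± 1.07, 0.04 ± 1.52 and 1.58 ± 1.73 for these genes, with limma adjusted p of 0.856, 0.997 and 0.843. The differences of the WY14643 effects between strains were -0.85 ± 1.51 for Myl4, -2.62 ± 2.15 for Myl7 and -1.44 ± 2.44 for Sln. Of all 45037 probe sets, 0.00222% were called for strain without WY14643 and 0% in each of the other 4 comparisons, and no atrial marker was among them. The 1 probe set called read Slfn3, a schlafen family gene named after its values were seen. At an unadjusted limma p under 0.05, the called shares were 4.01% for strain without and 8.86% for strain under WY14643. They were 6.75% for WY14643 in Control, 5.78% in del337TR and 4.90% for the difference of effects.

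Replicate numbers also fell unevenly over the ranking. The 4 hearts numbered 7 had ranks 1, 2, 3 and 19, and those numbered 2 had ranks 4, 5, 9 and 23. The hearts numbered 1 had ranks 16, 21, 24 and 28. The sources used here do not say what a number stands for.

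The largest differences between high-Myl4 and low-Myl4 hearts belonged to a short list of genes. A probe set was called where the sets did not overlap and differed by at least 2-fold. Of 45035 probe sets, 18 were called higher (0.0400%) and 2 lower (0.00444%), and without the 2-fold limit these were 23 (0.0511%) and 5 (0.0111%). With 7 hearts in each set the called counts were 33 higher and 7 lower, and with 14 in each set, where the borders touch, both were 0. The 18 read 15 genes, which were Sln, Myl7, Tmem163, Mlana, Mybphl, Dkk3, Fgf12, Fmod, Trnp1, Cacna2d2, Cd24a, Epyc, Tpm2, Myl9 and Prss23. Genes in this contrast were selected by the ranking itself, so these shares are a description. Among 16735 probe sets with 1 gene symbol and a mean signal of at least 100, the differences had a median of -0.01 and an SD of 0.18 (log2).

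Several of the called genes were contractile. Myl7 differed by 6.12 (log2), with mean log2 signals of 12.13 ± 0.55 in high-Myl4 and 6.01 ± 2.38 in low-Myl4 hearts (SD, n = 9 each). Mybphl, a myosin binding protein of atrial and conduction muscle, ran from 282.3 to 2465.9 (median 519.9) in high-Myl4 hearts and from 56.7 to 138.5 (median 95.9) in low-Myl4 hearts. It differed by 2.80 (log2), and ranks 1 and 2 stood far above the others with 2465.9 and 1615.5. Tpm2, beta-tropomyosin, differed by 1.13 on one probe set, with 124.7 to 499.9 in high-Myl4 and 79.5 to 120 in low-Myl4 hearts. On the brighter Tpm2 probe set the difference was 0.30 and the sets overlapped, so the probe sets of this gene disagreed. Myl9, the regulatory light chain of smooth muscle, ran from 819.1 to 1686.6 (median 1316.7) in high-Myl4 hearts and from 419.4 to 754.7 (median 610.7) in low-Myl4 hearts.

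Other sarcomere genes were close to level. Of 25 measured sarcomere isoforms 14 were higher and 11 lower in high-Myl4 hearts, with a median of 0.01, and Myl7 and Mybphl were the 2 without overlap. Tnni1, the slow skeletal troponin I of the immature heart, differed by 1.22 with overlapping sets and signals from 12.6 to 225.8. Myh6, the fast myosin heavy chain, differed by 0.04. Myh7, the slow heavy chain, differed by -0.10.

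Among calcium-handling genes Sln stood alone. Sln differed by 6.90 (log2), with mean log2 signals of 12.41 ± 0.66 in high-Myl4 and 5.51 ± 2.94 in low-Myl4 hearts (SD, n = 9 each). Since several low-Myl4 signals were close to 0, the sizes for Sln and Myl7 depended on the treatment of low values, and with 16 added to each signal they were 5.98 and 5.49. Of 15 measured calcium cycling genes 5 were higher and 10 lower, with a median of -0.02. Atp2a2, the calcium pump that sarcolipin restrains, differed by 0.02, and Pln, phospholamban, by -0.03. Ryr2, the calcium release channel, differed by -0.02.

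Of the natriuretic and secretory genes, Nppa differed most. Nppa, atrial natriuretic peptide, ran from 12384.5 to 18293.6 (median 14345.3) in high-Myl4 hearts and from 2837.7 to 12130.7 (median 9965.5) in low-Myl4 hearts. The sets did not overlap, but the difference of 0.75 (log2) was under 2-fold. Nppb, B-type natriuretic peptide, differed by 0.00, with 3109 to 11393.3 in high-Myl4 and 3665.2 to 12986.6 in low-Myl4 hearts. Pam, the peptide amidating enzyme abundant in atrial granules, differed by 0.36 with overlap. Of 15 measured natriuretic and secretory genes 11 were higher and 4 lower, with a median of 0.14, and Nppa was the one without overlap.

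Dkk3, a secreted protein of the Dickkopf family, followed Myl4 closely. It ran from 538.1 to 2814.7 (median 917.2) in high-Myl4 hearts and from 75.3 to 274.7 (median 159.4) in low-Myl4 hearts, a difference of 2.80 (log2). Its second probe set differed by 2.55, again without overlap. Over the 28 hearts the log2 signal of Dkk3 had a Pearson r of 0.939 with Myl4, next to 0.981 for Sln and 0.967 for Myl7.

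Fgf12 and Cacna2d2, which stand on none of the lists, act at ion channels. Fgf12, an intracellular factor that binds voltage-gated sodium channels, ran from 235.9 to 1146.3 (median 399.3) in high-Myl4 hearts and from 64.4 to 163 (median 141.5) in low-Myl4 hearts. Its difference was 1.85 (log2), and a second, dimmer probe set gave 2.76. Cacna2d2, an auxiliary subunit of calcium channels, ran from 191.2 to 320.4 (median 247.2) in high-Myl4 hearts and from 76.7 to 146 (median 107.3) in low-Myl4 hearts. The sets of both genes were fully apart. Channel genes better known from atrial muscle overlapped, with Kcna5 at 0.33, Kcnj3 at 0.31 and Kcnj5 at 0.16. Of 19 measured ion channel and connexin genes 10 were higher and 9 lower, with a median of 0.04.

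Among the called genes, Tmem163 and Mlana differed most after Sln and Myl7. Both reached the mean signal of 100 asked of named genes only through the high-Myl4 hearts, while the call itself used no such limit. Tmem163, a zinc transporter of intracellular vesicles, ran from 61.9 to 698.3 (median 132.8) in high-Myl4 hearts and from 6.5 to 34.7 (median 12.2) in low-Myl4 hearts. Mlana, a melanosome protein, ran from 136.2 to 995.3 (median 189.3) in high-Myl4 hearts and from 7.8 to 61.6 (median 31.5) in low-Myl4 hearts. Their differences were 3.53 and 3.17 (log2), or 2.59 and 2.53 with 16 added to each signal. In a list of 10 genes taken for melanocytes after these values were seen, both among them, 6 were higher and 4 lower, with a median of 0.08. Apart from these members the list overlapped, with Tyr at 0.43, Pmel at 0.36, Mitf at 0.16 and Dct at -0.24. The summed signal of the 10 genes ran from 2014.8 to 3689.6 in high-Myl4 and from 1556.3 to 2154.4 in low-Myl4 hearts, and its part in the result was not tested.

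Fmod and Epyc encode matrix proteoglycans. Fmod, fibromodulin, ran from 172.4 to 298.8 (median 229.6) in high-Myl4 hearts and from 39.3 to 159.2 (median 105.3) in low-Myl4 hearts, a difference of 1.35 (log2). Its 6 probe sets differed by 1.15 to 1.83, and the sets were apart on 2 of them and overlapped on 4, the brightest among these. Epyc, the proteoglycan epiphycan, ran from 124 to 300.2 (median 188.6) in high-Myl4 hearts and from 39.9 to 107.8 (median 100.5) in low-Myl4 hearts. Ranks 1 and 2, where Mybphl, Mlana, Tmem163 and Fgf12 were highest, had the lowest Fmod of the high-Myl4 hearts (172.4 and 181.3) and low Epyc (124 and 128.9). Comp, cartilage oligomeric matrix protein, differed by 1.27 and Chad, chondroadherin, by 2.70, both with overlap. In a list of 12 such matrix genes drawn up after these values were seen, 10 were higher and 2 lower, with a median of 0.62, and on the brightest probe sets 1, Epyc, was separated and called. Their summed signal ran from 4325.1 to 6334.3 in high-Myl4 and from 3309.8 to 4060.1 in low-Myl4 hearts.

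The remaining called genes were Cd24a, a cell surface glycoprotein, Trnp1, a nuclear protein known from brain development, and Prss23, a serine protease. Cd24a ran from 181.1 to 391.4 (median 277) in high-Myl4 hearts and from 85.9 to 137 (median 110.5) in low-Myl4 hearts. Trnp1 differed by 1.38 and was dim, with a mean signal of 60.7. Prss23 differed by 1.08. Under 2-fold but without overlap were also the RNA-binding protein gene Pum3 (0.83 and 0.49 on 2 probe sets), Qpct, glutaminyl cyclase (0.62), and Tbc1d1, a regulator of glucose transporter traffic (0.60).

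**Figure D3:**
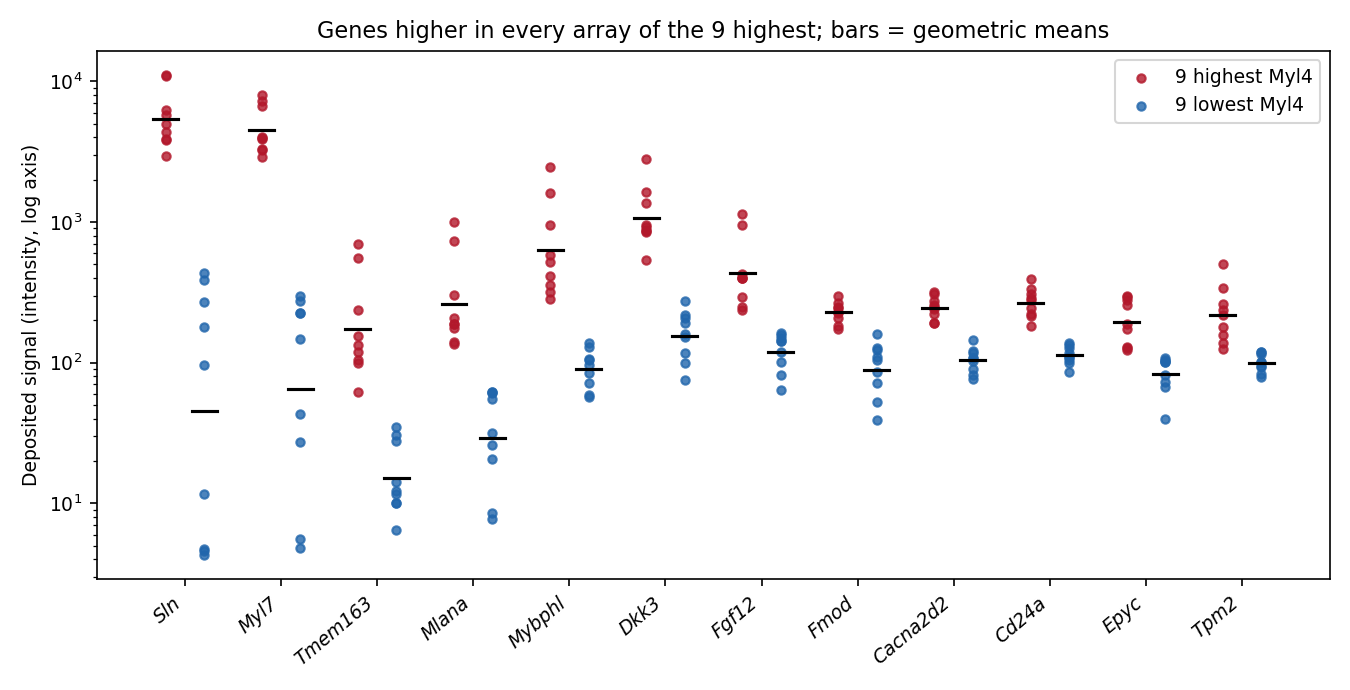
Deposited signal (log axis) in the 9 high-Myl4 hearts (red, left) and the 9 low-Myl4 hearts (blue, right) for the 12 named genes with the largest differences without overlap, with bars at geometric means. Sln spans from 4.3 to 11151, while Fmod, Cacna2d2, Cd24a, Epyc and Tpm2 differ by 2.18-fold to 2.55-fold.

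Differences in the other direction were smaller. Acat1, the mitochondrial acetoacetyl-CoA thiolase of ketone body use, ran from 2271.9 to 3549.7 (median 3035.7) in high-Myl4 hearts and from 3585.1 to 4400.8 (median 4078.3) in low-Myl4 hearts. Its difference was -0.46 (log2), and it had the lowest correlation with Myl4 of the bright probe sets, with a Pearson r of -0.795 over 28 hearts. Abcc9, a regulatory subunit of the ATP-sensitive potassium channel, ran from 2181.6 to 2668.9 (median 2557.5) in high-Myl4 hearts and from 2671.4 to 3401.3 (median 2943) in low-Myl4 hearts. Tfip11, a splicing factor, differed by -0.28, likewise without overlap. The 2 probe sets called lower were Srrm4os (-1.59, mean signal 29.6) and a probe set without a gene name, and both were dim. The 12 largest falls among brighter genes ran from -0.91 for Mvk, mevalonate kinase, to -0.68 for Pom121, and the sets overlapped for all 12. Xist and Eif2s3y, which mark sex, were among these 12, at -0.74 and -0.79, with 3 female and 6 male hearts in each set. Without single hearts Xist ran from -1.37 to -0.26 and Eif2s3y from -1.49 to -0.05, and Eif2s3y turned to 0.10 with sets of 7 and 1.65 with sets of 14.

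Of 15 measured atrial genes other than Myl4, 13 were higher and 2 lower in high-Myl4 hearts, with a median of 0.33, and Myl7, Sln, Mybphl, Dkk3 and Nppa were the 5 without overlap. Over all probe sets the median was 0.01, and 0.0511% were separated higher and 0.0111% lower. A list without a separated gene, here and below, is thus the usual case. Stard10, a lipid transfer protein gene, differed by 0.70, and Nr2f2, an atrial identity factor, by 0.31, with overlap. Bmp10, an atrial growth factor, and Gja5, connexin 40, were dim and stood at -0.18 and -0.43. Of 11 ventricular genes 4 were higher and 7 lower, with a median of -0.07 and no separated gene. Myl2, the ventricular regulatory light chain, ran from 12888.7 to 18578.3 (median 17630.2) in high-Myl4 hearts and from 13048.1 to 22900.4 (median 15692.3) in low-Myl4 hearts. Its difference was 0.05, Irx4, a ventricular transcription factor, stood at -0.07 and Kcnd2, a potassium channel, at -0.16. The ranges of the 2 sets overlapped for every ventricular gene, and the summed signal of the 11 ran from 64843.8 to 85134 in high-Myl4 and from 63012.7 to 106530 in low-Myl4 hearts.

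Genes of the sinoatrial node and conduction system included 8 of 10 higher and 2 lower, with a median of 0.14 and none separated. Shox2, a transcription factor of the sinus node, ran from 40.3 to 178.7 (median 107.3) in high-Myl4 hearts and from 8.5 to 54.1 (median 35.4) in low-Myl4 hearts, a difference of 1.83 (log2) with a small overlap. Cacna1g, a T-type calcium channel, differed by 1.02, while Tbx3 and Isl1, also nodal factors, stood at -0.02 and 0.02. Among 21 chamber transcription factors 16 were higher and 5 lower, with a median of 0.11. Tbx5 and Hey1, of atrial patterning, stood at 0.60 and 0.58, both with overlap.

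Energy genes differed little. All 15 measured fatty acid oxidation genes were lower in high-Myl4 hearts, with differences from -0.12 to -0.0051 (log2), a median of -0.04 and overlap for every one. Among 20 respiratory chain genes 7 were higher and 13 lower, with a median of -0.01. Of 12 immediate early genes, known from handling stress, 9 were higher and 3 lower, with a median of 0.05.

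Markers of other cells of the heart and its vessels had list medians from 0.01 to 0.38, and every marker on these lists overlapped between the sets. Of all probe sets only 0.0511% were separated higher and 0.0111% lower, so overlap throughout a list of this size says little about these cells. Of 10 vascular smooth muscle markers 9 were higher, with a median of 0.32, and their summed signal ran from 5802.9 to 9228.7 in high-Myl4 and from 5193.1 to 6926.1 in low-Myl4 hearts. Tagln stood at 0.82, Cnn1 at 1.12 and Acta2 at 0.40, all with overlap, beside the called light chain gene Myl9. Of 10 fibroblast markers 9 were higher, with a median of 0.28 and sums of 20719.5 to 27290.9 in high-Myl4 and 19135.9 to 25534.3 in low-Myl4 hearts. Col1a1 and Postn stood at 0.41, while Dcn stood at 0.06. Of 9 endothelial and endocardial markers 8 were higher (median 0.14), of 7 leukocyte markers 5 (0.13), and of 6 adipocyte markers 5 (0.38), with Adipoq at 1.07. Of 10 epicardial markers 5 were higher (median 0.01), of 6 nerve markers 5 (0.22), and of 6 thymocyte markers 5 (0.14). Of 8 skeletal muscle markers 7 were higher (0.30), with summed signals of 179.8 to 338.4 in high-Myl4 and 101.4 to 252.2 in low-Myl4 hearts. The lung and erythrocyte lists had medians of 0.13 and 0.17. The part of these cells in the differences was not tested.

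**Figure D4:**
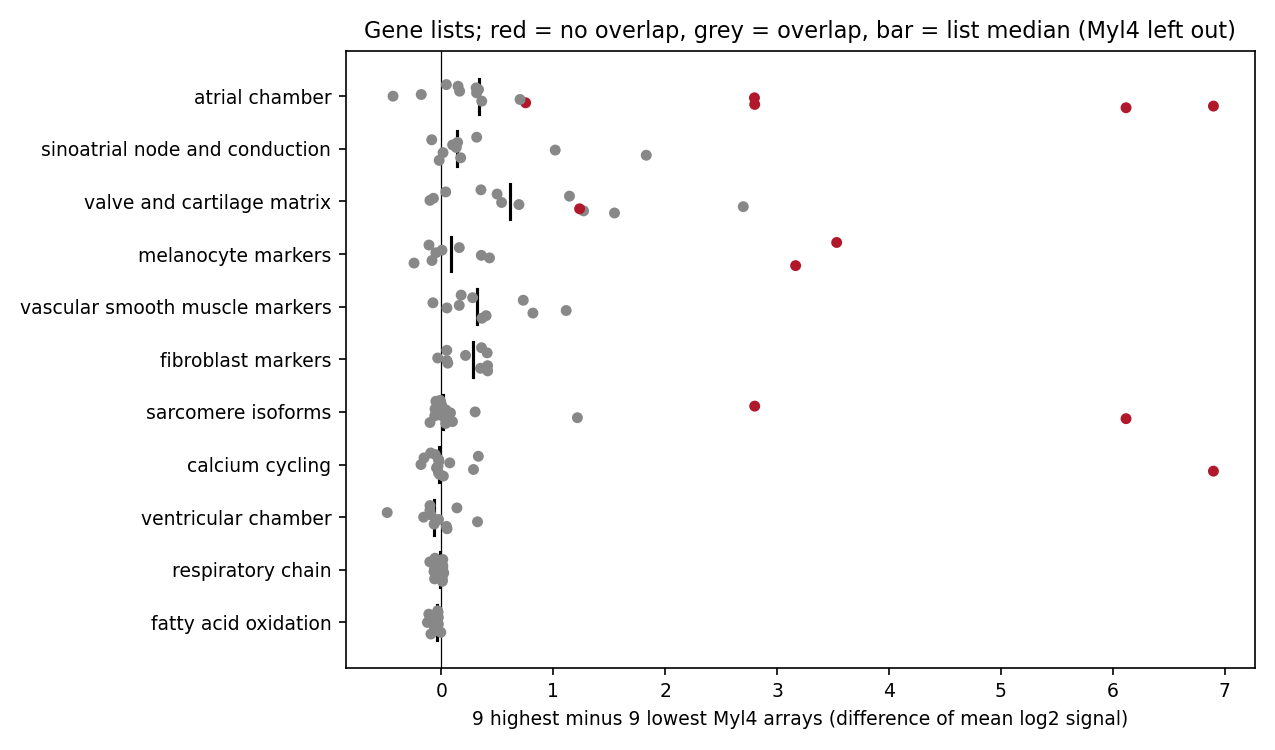
Difference of mean log2 signal, 9 high-Myl4 minus 9 low-Myl4 hearts, for each measured gene of 11 lists, each gene read by its brightest probe set, with a bar at the list median. Separated genes (red) lie in the atrial, matrix, melanocyte, sarcomere and calcium lists, and those of the ventricular, respiratory and fatty acid lists all overlap.

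The 10 hearts of ranks 10 to 19 took no part in choosing these genes, so in them the relation to Myl4 could be tested. In these hearts Myl4 ran from 1467.9 to 4642.7. Log2 Sln had a slope of 1.53 ± 0.14 (SE) on log2 Myl4, with a limma adjusted p of 0.0215. Sln was called together with 1 other probe set, for Cd44, a hyaluronan receptor gene, with a slope of 3.39 ± 0.31 (limma adjusted p = 0.0215). These were 2 of 45035 probe sets, or 0.00444%. Cd44 was not among the separated genes, and its probe set differed by 0.15 between high-Myl4 and low-Myl4 hearts.

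The other genes higher in high-Myl4 hearts did not pass over all probe sets. Myl7 had a slope of 0.54 ± 0.11 (SE, limma adjusted p = 0.229), Nppa 0.95 ± 0.17 (limma adjusted p = 0.194) and Dkk3 0.66 ± 0.15 (limma adjusted p = 0.240). Mybphl had 0.93 ± 0.23 (limma adjusted p = 0.268), Fgf12 0.99 ± 0.16 (limma adjusted p = 0.171) and Mlana 0.80 ± 0.17 (limma adjusted p = 0.229). Slopes near 0 were found for Fmod (0.02 ± 0.13), Cacna2d2 (0.06 ± 0.17), Cd24a (-0.10 ± 0.18), Epyc (-0.02 ± 0.26) and Myl9 (0.06 ± 0.17). Of the 18 probe sets called higher, 15 had a positive slope, where 45.4% of all probe sets had one. An unadjusted limma p under 0.05 was reached by 10 of the 18, against 4.69% of all probe sets with a positive and 5.15% with a negative slope. The 18 read 15 genes, and the 10 count both separated probe sets of Dkk3 and of Fgf12. Of the 5 separated lower probe sets 2 had a negative slope, and none had an unadjusted limma p under 0.05.

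Correlations in the same 10 hearts were computed for 4 genes, without regard to group. Sln had a Pearson r of 0.971 (permutation p = 1e-05, the smallest that the draws can give, adjusted 4e-05) and a Spearman rho of 0.927 (permutation p = 0.00033, adjusted 0.00098). Myl7 had an r of 0.904 (permutation p = 0.00047, adjusted 0.000893) and a rho of 0.915 (permutation p = 0.00049, adjusted 0.00098). Mybphl had an r of 0.806 (permutation p = 0.00067, adjusted 0.000893) and a rho of 0.661 (permutation p = 0.0435, adjusted 0.05). Dkk3 had an r of 0.851 (permutation p = 0.00243, adjusted 0.00243) and a rho of 0.648 (permutation p = 0.05, adjusted 0.05). Without the 2 hearts farthest from the median of Myl4 the r was 0.952 for Sln, 0.832 for Myl7, 0.602 for Mybphl and 0.735 for Dkk3.

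The order of these 10 hearts was tied to their groups. Ranks 17, 18 and 19 were all Control with WY14643, and they also had the lowest Nppa of the 10, at 3877 to 4703.4, and the lowest Myh7, at 3920.7 to 4519.7. Their actin signals at the 3′ over the 5′ end were 1.43, 1.39 and 1.82, against 1.09 to 1.36 at ranks 10 to 16. The lowest Myl4 of the 10 thus came with the highest ratios, and the part of RNA quality in the slopes and correlations was not tested. With group as a block, chosen after seeing the data, no probe set passed, and the slope of Sln was 1.24 (limma adjusted p = 0.645) and that of Cd44 3.01 (limma adjusted p = 0.608). The slope was then 0.89 for Myl7, 0.96 for Myl9, 0.18 for Dkk3 and 0.09 for Nppa. Mybphl then had a slope of 0.56 with an unadjusted limma p of 0.423. With the block 15 of the 18 slopes were positive, against 40.2% of all probe sets. An unadjusted limma p under 0.05 with a positive slope was reached by Sln, Myl7 and Myl9, or 3 of the 18, against 1.6% of all. With 1 heart left out at a time, the call of Sln ended for 9 of the 10 hearts and that of Cd44 for 8 of 10, with limma adjusted p up to 0.118. Sln passed only without replicate 1 of untreated del337TR, and Cd44 without replicate 1 or 6 of that group.

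In 4 hearts of Control with WY14643, Myl7 was high relative to Sln. The signal of Myl7 over that of Sln in the same heart was compared after its values were seen, since the ratio shows unequal change of these genes and not their relative levels. Where both signals were at least 50, the ratio ran from 0.670 to 0.984 (median 0.810, n = 6) in del337TR with WY14643 and from 0.798 to 3.06 (median 2.14, n = 6) in Control with WY14643. It ran from 0.666 to 1.11 (median 0.893, n = 7) in untreated del337TR and from 0.684 to 1.06 (median 0.823, n = 5) in untreated Control. Within Control with WY14643, replicates 1, 4, 6 and 7 had ratios of 2.35, 2.38, 1.93 and 3.06, and replicates 2 and 5 had 0.798 and 0.856, inside the range of the other groups.

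Over all arrays, the log2 ratio under WY14643 was lower in del337TR than in Control by a difference of -1.53 (exact two-sided permutation p = 0.00699, adjusted over 4 comparisons 0.0280). With both signals at least 50 the difference was -1.06 (exact permutation p = 0.0260, adjusted 0.0779), so the call was lost. WY14643 against no treatment in Control gave 0.94 over all arrays (exact permutation p = 0.161, adjusted 0.227) and 1.02 at signals of at least 50 (exact permutation p = 0.0390, adjusted 0.0779). Replicates 1, 4, 6 and 7 of Control with WY14643 also had Nppa signals of 2837.7 to 4703.4 below that of every other heart, and Myh7 signals of 3920.7 to 6007. The lowest Myh7 of all, 3102.7, was that of untreated Control replicate 7, whose ratio was 1.06. Actin signals at the 3′ over the 5′ end were 1.32, 1.39, 1.43 and 1.82 in replicates 1, 4, 6 and 7 of Control with WY14643. They were 1.19 and 1.36 in replicates 2 and 5 of that group and 1.52 in untreated Control replicate 7. The part of these genes and of RNA quality in the ratio of Myl7 to Sln was not tested.

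**Figure D5:**
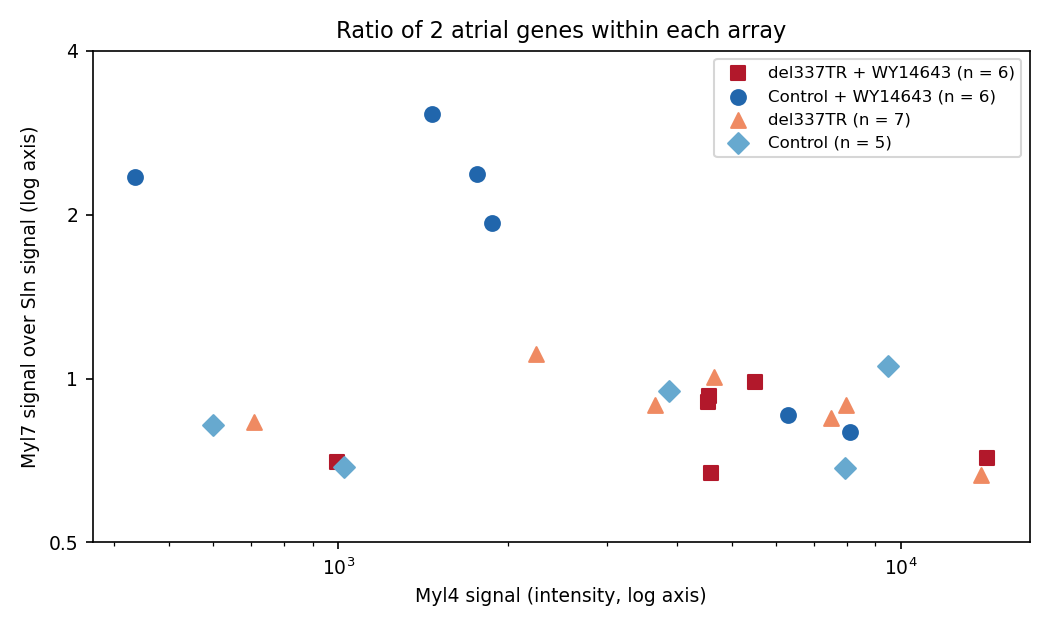
Ratio of Myl7 to Sln signal (log axis) against Myl4 signal (log axis) for the 24 hearts with both signals at least 50, by group. Of the hearts of Control with WY14643, 4 lie between 1.93 and 3.06, and all other hearts lie at 1.11 or below.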

How the data were processed

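The 28 heart samples were measured on 1 array each, and all 28 arrays were mapped to 4 groups of 7 by their labels. The labels do not say whether each sample came from a single mouse. The authors deposited a linear intensity for each probe set and array, up to 26183.2. The submitters' processing notes name RMA, with no version, but the deposited values did not have its form. They were not logged, and after trimming 2% from either end each array averaged 250.0, so they were treated as globally scaled signals. Any batch or scan date is not given in the sources used here.

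The 64 control probe sets among 45101 were left out. Signals were floored at 0.1, which affected 3 values at 0, and log2 transformed. Of 45037 probe sets, 34945 had 1 gene symbol in the platform annotation, 932 several and 9160 none, and only those with 1 symbol gave a gene its name. A gene on a list was read by its brightest probe set. No arrays held identical values.

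Members and lists were chosen with earlier results of these data known, and the melanocyte and matrix lists after their values were seen. High-Myl4 and low-Myl4 hearts were compared by means, ranges and overlap alone. Slopes in the 10 middle hearts and group differences over all 28 were fitted with limma 3.58.1 in R 4.3.3 (lmFit, eBayes) and adjusted by Benjamini and Hochberg over all probe sets, with a threshold of 0.05. Ranks and ratios were compared by exact permutation over at most 3432 regroupings, and correlations by 100000 draws. All tests were two-sided, and the fits were tested on simulated data. The number of arrays limited the precision.

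Genes were named by a rule on probe sets with 1 symbol and a mean of at least 100. It took the 12 largest rises without overlap, the 12 largest falls, up to 4 members of each list, and the 10 genes most and 5 least correlated with Myl4. Other genes, among them Cd44, Pum3, Qpct, Tbc1d1, Tfip11, Trnp1, Prss23 and Srrm4os, were named after their values were seen. The alternatives were 16 added to each signal, a filter at the 40th percentile, quantile normalization, median centring, sets of 7 or 14, ranking by Myl7 or Sln, other eBayes settings, a Myl7 covariate, a replicate block and each array left out.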

Additional observations from a re-analysis of the deposited data

Results flagged for a closer look

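In a search of 13 genes in 4 groups, or 52 searches, 4 gene values, in 2 hearts, lay far from the others of their group. Their gap over the group's range, both taken on log2 signals, was past the critical value of 0.568. Chance alone gives about 1 in 20. Replicate 7 of del337TR with WY14643, the heart with the highest Myl4, held 3 of the 4 values. These genes were chosen for being high where Myl4 is high, this heart among the 9 highest, so its high values are a description. Its Fgf12 signal was 1146.3, against 142.8 to 247.5 in the other hearts of the group (gap over range 0.736). Its Tpm2 signal was 499.9, against 93.6 to 158.2 (gap over range 0.687). Its Mybphl signal was 2465.9, against 72.2 to 319.9 (gap over range 0.578). Replicate 3 of Control with WY14643, at rank 27 of 28 for Myl4, had an Fmod signal of 39.3, against 123.9 to 248.8 in the others (gap over range 0.622). Among 25 genes no difference of the WY14643 effects between strains passed limma's test (lowest limma adjusted p = 0.956).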

How the results depend on the processing

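Probe sets called higher in high-Myl4 hearts numbered 18, and 33 with 7 hearts in each set, 0 with 14, 13 with ranking by Sln and 18 to 21 without single hearts. Those called lower numbered 2, and 7 with 7 hearts, 0 with 14 hearts, 16 added, the 40th percentile filter or ranking by Sln, and 2 to 5 without single hearts (5 without replicate 3 of Control with WY14643). A sex block, added after seeing the data, could not move these differences, since both sets held 3 female and 6 male hearts. With 14 hearts in each set Myl7 differed by 4.16 and Dkk3 by 1.99. Fmod, Cacna2d2, Cd24a, Tpm2 and Epyc then fell under 2-fold (0.88, 0.81, 0.79, 0.79 and 0.71). In the middle hearts 2 probe sets passed, and 12 with 16 added or quantile normalization, 7 with median centring, 16 with the 40th percentile filter, 157 with trend and robust eBayes, 0 with log2 Myl7 in place of Myl4 or group as a block, and 0 to 44 without single hearts. The slope of Sln ran from 1.40 to 1.59 without single hearts (limma adjusted p 0.0288 to 0.118) and that of Cd44 from 3.27 to 3.53 (0.000575 to 0.118). With trend and robust settings Myl7 and Fgf12 passed too (limma adjusted p = 0.0206 and 0.0177). The cause of these shifts was not tested.

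For strain without WY14643 the 1 probe set called, for Slfn3, was lost (0) with the 40th percentile filter, the replicate block, a Myl7 covariate or sex as a block, and the count was 0 to 1 without single hearts. The counts of 0 became 1 with 16 added for WY14643 in Control and for the difference of effects, and ran from 0 to 1 without single hearts for WY14643 in Control and in del337TR, and from 0 to 0 for strain under WY14643 and the difference of effects. Over brighter probe sets, deviations from group means had a mean r of 0.037 between same-numbered hearts of different groups (n = 42 pairs). Between hearts with other numbers it was -0.0059 (n = 252 pairs), and a shared origin of same-numbered hearts was not tested. The replicate block changed no other call. No marker passed in any group comparison under any setting, and these signs turned. For strain under WY14643, Myl7 was -0.037 with median centring, -0.30 with sex as a block and -0.66 to 1.25 without single hearts. With a Myl7 covariate Myl4 was -0.064 for strain without WY14643, -0.73 for WY14643 in Control, 0.22 in del337TR and 0.95 for the difference of effects, and Sln was -1.09 for WY14643 in Control, 0.36 in del337TR and 1.44 for the difference of effects. Without single hearts, WY14643 in Control ran from -0.33 to 0.83 for Myl4 and -0.49 to 1.56 for Sln, and WY14643 in del337TR from -1.02 to 0.079 for Myl4, -1.73 to 0.011 for Myl7 and -1.51 to 0.14 for Sln. Ranked by Sln, the WY14643 difference in Control was 0.571 ranks, against -0.286 by Myl4. Depth of signal limited Sln and Myl7 in the lowest hearts, which lay near the bottom of the arrays' range.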

Other observations

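Within each of the 4 groups, slopes on Myl4 were positive for all 23 separated higher probe sets, where 8.13% of all probe sets had positive slopes in every group. These slopes include the hearts that chose the probe sets, so the count is a description. The slopes of the 5 separated lower probe sets, chosen by the same hearts, were negative in every group, as were those of 6.4% of all probe sets.

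Over the 28 hearts, 30 probe sets with 1 symbol and a mean of at least 100 had a Pearson r over 0.7 with Myl4 and 3 had one under -0.7, while 5% lay below -0.363 and 5% above 0.376. After Sln, Myl7 and Dkk3 the genes most like Myl4 were Fmod (0.853), Mybphl (0.815), Mlana (0.798), Cacna2d2 (0.798), Comp (0.796), Ecrg4, a secreted peptide precursor gene (0.794), and Myl9 (0.792). The lowest were Acat1, Fam185a (-0.714), Lrrc39, a sarcomere-linked protein gene (-0.704), Cisd1, a mitochondrial iron-sulfur protein gene (-0.693), and Abcc9 (-0.687). These points share the arrays' scaling, and the correlations are descriptions.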
